A study of Mus musculus with 10 samples.

Results

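The 10 core B lineage transcription factors described here, Pax5, Ebf1, Spib, Ikzf1, Ikzf3, Bach2, Foxp1, Pou2af1, Pou2f2 and Satb1, were taken by name from the 14450 genes of the deposited table, and all 10 were listed. RNA was sequenced from mature B cells of Chat-GFP mice at steady state, taken from bone marrow with a cell sorter; the labels name no treatment. In this reporter strain green fluorescence marks cells that use the locus of Chat, the gene of choline acetyltransferase. The 5 Chat+ and 5 Chat- libraries were compared to find genes that differ between reporter-positive and reporter-negative cells of this strain. The age and sex of the mice and the sort gates beyond the labelled cell type are not stated here, nor is whether different animals gave the 5 libraries of each group. All p-values thus measure the spread between these libraries, which may be technical.

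B cell identity is set by a small network of transcription factors. Ebf1 and Pax5 commit lymphoid precursors to the lineage, and Pax5 then keeps genes of other lineages and of plasma cells off. Ikzf1 and Ikzf3 (Ikaros and Aiolos) are zinc finger proteins that restrain pre-B cell genes, Spib is an ETS family factor, and Pou2f2 (Oct-2) and its coactivator Pou2af1 (OBF-1) act on octamer motifs. Bach2 represses the plasma cell programme, Foxp1 acts in precursor and follicular B cells, and Satb1 organises chromatin in lymphocytes.

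Chat lay between 31.1 and 110.6 CPM (counts per 1000000 counts) in the Chat+ libraries and between 1.17 and 19.7 CPM in the Chat- libraries. The B cell genes Cd79a, Cd79b and Ms4a1 lay between 1390.2 and 2391 CPM in all libraries, so markers of the labelled cell type were present throughout. Each library held an estimated 21530000 to 30060000 reads. The library Chat- replicate 4 stood apart, since 1213 genes had no signal in it, compared with 62 to 682 elsewhere. Mitochondrial transcripts made up 11.9% of its CPM, against 2.27% to 3.85% elsewhere.

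All 10 factors were detected in every library, at 134 to 1430 CPM. None of them passed the test over all genes for a difference between Chat+ and Chat- cells. With limma and Benjamini-Hochberg adjustment over 14450 genes, 0 of the 10 factors passed the threshold of 0.05, where 0.00692% of all genes passed. Of all genes, 0 passed as higher in Chat+, so Chat itself did not pass either. A factor that did not pass is thus not shown to be equal in the groups. At an unadjusted p under 0.05, 2 of the 10 were lower in Chat+ (Satb1 and Bach2) and 0 were higher, against 1.01% and 3.49% of all genes. The factors were chosen with earlier results of these data known, so counts among them do not test them as a set. The estimate lay below 0 for 8 of the 10, against 43% of all genes, and the median log2 fold change (Chat+ minus Chat-, on the log2(CPM + offset) scale) was -0.13 against 0.04 over all genes. That count depends on the scaling and on the libraries. With trimmed mean (TMM) scaling or with library medians set equal, 10 of 10 estimates lay below 0, against 51.1% and 51% of all genes. Without Chat- replicate 4, 9 of 10 lay below 0, against 50.4% of all genes, and the median over all genes was -0.002. In bulk samples, fewer cells that carry a transcript and less of it per cell cannot be told apart.

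**Figure D1:**
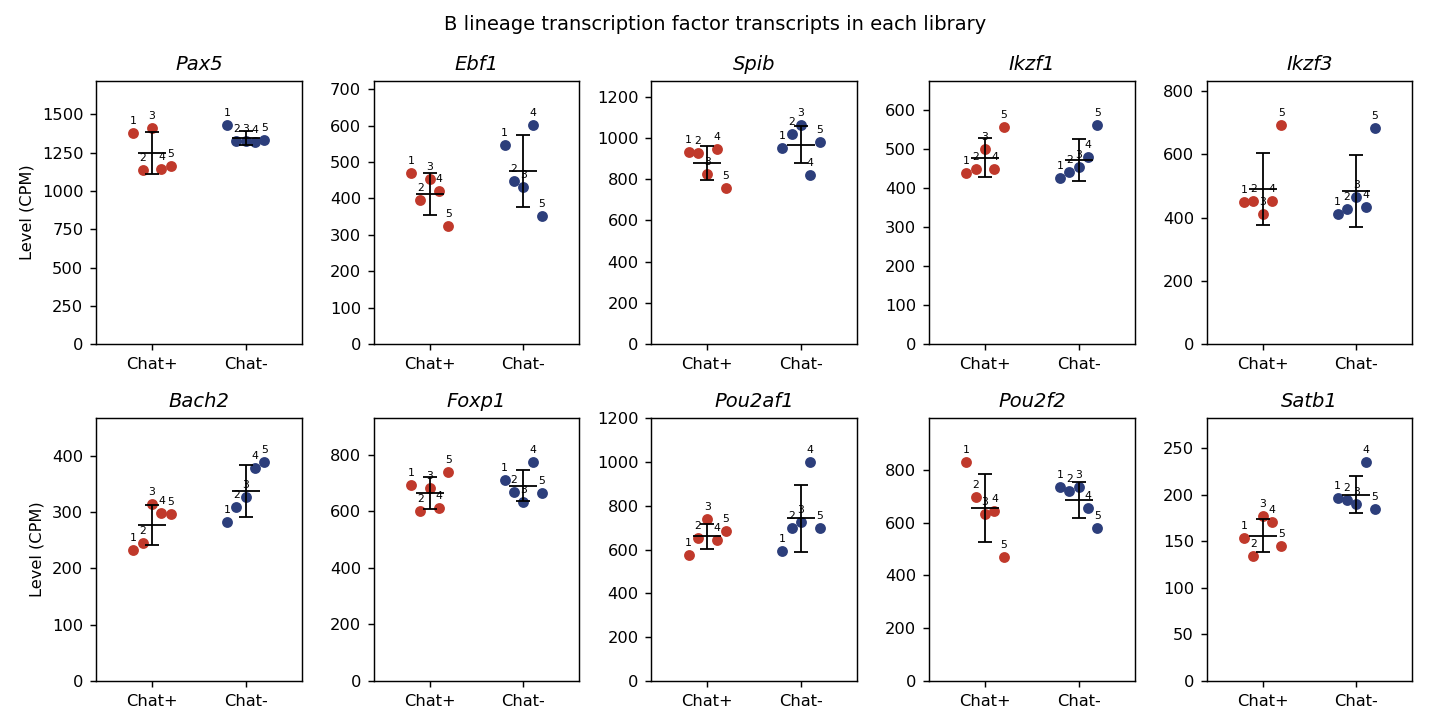
Level of each factor in CPM (vertical axes from 0) in the 5 Chat+ and 5 Chat- libraries, with the replicate number beside each point; the horizontal mark and bar are the mean and SD. The Satb1 points of Chat+ (134 to 177 CPM) lie below all those of Chat- (185 to 236 CPM), while the groups overlap for the other 9 factors.

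Satb1 (ENSMUSG00000023927, GRCm38 chromosome 17, 51736187 to 51833290, minus strand) was the 1 factor whose groups did not overlap. It encodes a chromatin organiser that is abundant in T cells. Its level was 154, 134, 177, 171 and 145 CPM in Chat+ replicates 1 to 5, and 197, 194, 190, 236 and 185 CPM in Chat- replicates 1 to 5. Every Chat+ library thus lay below every Chat- library, which 0.304% of all genes did, but the gap between the nearest libraries was small. Mean CPM was 156 ± 17.9 and 200.4 ± 20.3, respectively (SD, n = 5). The log2 fold change was -0.36 ± 0.10 (SE), a change of -22.2% with a 95% confidence interval of -33.6% to -8.90%. It did not pass over all genes (limma adjusted p = 0.56).

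Chat- replicate 4, which stood apart in composition, had the highest Satb1 level. Without it the Chat- mean was 192 ± 5.13 CPM (SD, n = 4), and the log2 fold change was -0.30 (95% confidence interval -0.50 to -0.10; limma adjusted p = 0.36). The groups still did not overlap. T cells also express Satb1, so their markers were read beside it. Of 15 T cell markers, 10 (among them Cd3e, Cd3d, Cd3g and Trac) were not in the table and are not analysed here. Cd4, Thy1, Bcl11b and Tcf7 lay between 0 and 8.04 CPM in every library. Lck, a kinase gene that some B cells also use, lay at 13.1 to 25.0 CPM in Chat+ and 16.5 to 30.4 CPM in Chat-. The 5 measured T cell markers summed to 19.8 to 29.3 CPM in Chat+ and 27.6 to 34.1 CPM in Chat-. Of the precursor B cell markers, 5 of 9 were measured, and they summed to 2.59 to 4.85 CPM in Chat+ and 4.30 to 11.3 CPM in Chat-. Without Rag1 the other 4 summed to 2.35 to 3.55 CPM and 1.89 to 4.23 CPM, and 1 of them, Kit, had an estimate above 0 (log2 fold change 1.56). Without Lck the T cell markers summed to 3.28 to 6.74 CPM in Chat+, 12.9 CPM in Chat- replicate 4 and 2.67 to 3.997 CPM in the other Chat- libraries. Their part in the Satb1 difference was not tested.

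Satb1 has 5 annotated starts in RefSeq, and the table does not say which of them these cells used. The 250 bases before 1 start that has an ETS motif are printed, since Satb1 was the factor without overlap and because Spib, itself one of the factors, belongs to the ETS family. The capitals mark GGAAGT or its reverse complement, on GRCm38.p6 chr17:51826589-51826838, minus strand, 5′ to 3′.
Satb1: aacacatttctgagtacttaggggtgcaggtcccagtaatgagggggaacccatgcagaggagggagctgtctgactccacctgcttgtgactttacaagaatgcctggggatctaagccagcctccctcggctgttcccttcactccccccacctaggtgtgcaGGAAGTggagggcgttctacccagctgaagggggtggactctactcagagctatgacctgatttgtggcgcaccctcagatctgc
The motif was searched on both strands and occurs in 4 of the 17 annotated promoters of the factors, against 19.7% of 32851 mouse promoters of the same length. A match describes these letters and is not evidence of binding.

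Bach2 (ENSMUSG00000040270, chromosome 4 at 32238804 to 32586108, plus strand) had the next smallest p. It encodes the repressor that holds back plasma cell differentiation. The level was 234, 245, 314, 298 and 297 CPM in Chat+ replicates 1 to 5, and 283, 309, 327, 379 and 390.0 CPM in Chat- replicates 1 to 5. The groups overlapped, since 3 Chat+ libraries exceeded Chat- replicate 1. The means were 278 ± 35.9 and 338 ± 45.9 CPM (SD, n = 5), and the log2 fold change was -0.28 ± 0.12 (SE; limma adjusted p = 0.999). Without Chat- replicate 4 the estimate was -0.24 (limma adjusted p = 0.73) and its 95% confidence interval, -0.49 to 0.02, included 0. Prdm1, the plasma cell regulator that Bach2 is known to repress, was at 2.41 ± 0.760 and 2.33 ± 1.21 CPM in Chat+ and Chat- (SD, n = 5).

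**Figure D2:**
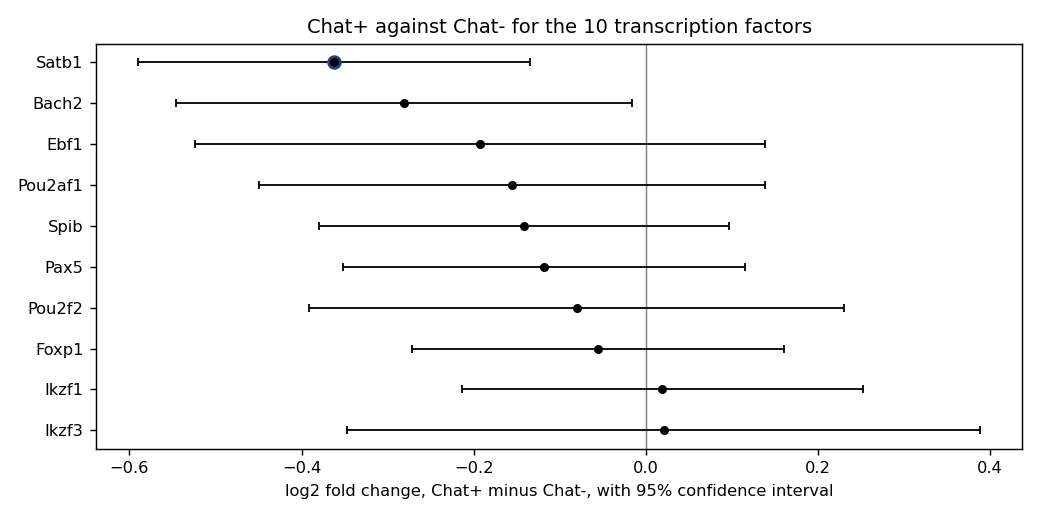
Log2 fold change (Chat+ minus Chat-) of the 10 factors from limma, with 95% confidence intervals; the larger blue point marks Satb1, whose groups do not overlap. Estimates run from -0.36 for Satb1 to 0.02 for Ikzf3, and the intervals of 8 factors include 0.

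Pax5 and Ebf1, the factors that commit cells to the lineage, did not differ by more than the spread between libraries. Pax5 (ENSMUSG00000014030, chromosome 4 at 44524757 to 44710487, minus strand) was at 1376, 1133, 1412, 1140.1 and 1164 CPM in Chat+ replicates 1 to 5. In Chat- replicates 1 to 5 it was at 1430.2, 1324, 1325, 1318 and 1329.7 CPM. The Chat+ libraries fell into 2 high and 3 low values, and the 2 high ones lay inside the Chat- range. The log2 fold change was -0.12, and the 95% confidence interval ran from -21.6% to 8.32% (limma adjusted p = 0.999).

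Ebf1 (ENSMUSG00000057098, chromosome 11 at 44617317 to 45008091, plus strand) was at 469.5, 396, 454, 421 and 323 CPM in Chat+ replicates 1 to 5. In Chat- replicates 1 to 5 it was at 547, 449, 432, 602 and 351 CPM. The groups overlapped widely, and replicate 5 was the lowest library of each group. The means were 413 ± 57.5 and 476 ± 98.8 CPM (SD, n = 5), with a log2 fold change of -0.19 and an interval from -30.5% to 10.1%. Chat- replicate 4 was again the highest library, and without it the estimate was -0.10. Without Chat+ replicate 5 it was -0.11, and without Chat- replicate 5 it was -0.30. Stromal cells can also express Ebf1. Their 11 measured markers summed to 553 CPM in Chat- replicate 4, against 287 to 413 CPM in Chat+ libraries. The other Chat- libraries had 300.3 to 323 CPM. Most of the sum outside Chat- replicate 4 was Pecam1, which B cells also carry. Without it the other 10 markers summed to 376 CPM in Chat- replicate 4, 33.8 to 47.1 CPM in the other Chat- libraries and 38.5 to 152 CPM in Chat+. Col1a1, a collagen gene, was at 110.8 CPM in Chat- replicate 4 and at 7.59 to 42.4 CPM in the other libraries, and Lepr, a marker of marrow stroma, was at 0 there. Their part in the Ebf1 level of that library was not tested.

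Spib and Pou2af1 were the most abundant of the factors per length of transcript. Spib (ENSMUSG00000008193, chromosome 7 at 44525993 to 44532071, minus strand) was at 931, 926, 824, 945 and 757 CPM in Chat+ replicates 1 to 5, and at 953, 1020.1, 1063, 822 and 978 CPM in Chat- replicates 1 to 5. The highest Chat+ value was exceeded in each Chat- library but replicate 4. The log2 fold change was -0.14 (interval from -23.1% to 6.95%; limma adjusted p = 0.999), and -0.20 without Chat- replicate 4 (limma adjusted p = 0.69). Plasmacytoid dendritic cells also express Spib, and 8 of 9 of their markers were measured. The markers summed to 296 to 360 CPM in Chat+ and 263 to 348 CPM in Chat-, most of it Tcf4, which B cells also express. Without Tcf4 they summed to 38.3 to 67.5 CPM in Chat+, 29.97 CPM in Chat- replicate 4 and 65.7 to 76.3 CPM in the other Chat- libraries. Siglech, a marker more particular to those cells, was at 0.550 to 2.12 CPM in Chat+ and 1.25 to 7.26 CPM in Chat-. Another, Cox6a2, was at 0 to 0.0388 CPM in Chat+ and 0.458 to 1.53 CPM in Chat-. These had the largest differences of the measured markers, but neither passed over all genes (limma adjusted p = 0.83 for Siglech and 0.24 for Cox6a2). Every Chat+ library lay below every Chat- library for Cox6a2, which 0.304% of all genes did, and its levels were near the floor. Bst2, Ccr9, Pacsin1 and Ly6c2 had log2 fold changes of -0.14, -0.08, -0.07 and -0.04, Klk1 of -1.27 and Tcf4 of 0.14. The part of plasmacytoid dendritic cells in the Spib level was not tested.

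Pou2af1 (ENSMUSG00000032053, chromosome 9 at 51213708 to 51240080, plus strand) was at 576, 653, 738, 646 and 685 CPM in Chat+ replicates 1 to 5. In Chat- replicates 1 to 5 it was at 594, 698, 727, 1002 and 699.5 CPM, so that 1 library lay far above all others. The means were 660 ± 59.3 and 744 ± 153 CPM (SD, n = 5), with a log2 fold change of -0.16 and an interval from -26.8% to 10.1%. Without Chat- replicate 4 the Chat- mean was 679 ± 58.7 CPM (n = 4) and the log2 fold change was -0.04. Its partner Pou2f2 (ENSMUSG00000008496, chromosome 7 at 25087344 to 25179726, minus strand) was at 831, 697, 634, 645 and 470.0 CPM in Chat+ replicates 1 to 5. In Chat- replicates 1 to 5 it was at 734, 719.6, 735, 655 and 579 CPM. Replicate 5 was the lowest library of each group, and the Chat+ range enclosed that of Chat-. The log2 fold change of Pou2f2 was -0.08, with an interval from -23.8% to 17.3% (limma adjusted p = 0.999). The CPM ratio of the coactivator to Pou2f2 averaged 1.05 ± 0.284 (Chat+) and 1.10 ± 0.279 (Chat-; SD, n = 5). It ran from 0.693 to 1.46 in Chat+ and from 0.809 to 1.53 in Chat-, so the balance of the partners varied more between libraries than between groups.

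The promoters of Spib and Pou2af1 are printed because these factors had the highest levels per length, and both hold a part of the octamer motif (TGCAAAT or its reverse complement, in capitals) that Pou2f2 is known to bind. The sequences are the 250 bases before each gene's annotated start in RefSeq on GRCm38.p6, 5′ to 3′ on the gene's strand. Spib is at chr7:44532072-44532321 on the minus strand and Pou2af1 at chr9:51213440-51213689 on the plus strand.
Spib: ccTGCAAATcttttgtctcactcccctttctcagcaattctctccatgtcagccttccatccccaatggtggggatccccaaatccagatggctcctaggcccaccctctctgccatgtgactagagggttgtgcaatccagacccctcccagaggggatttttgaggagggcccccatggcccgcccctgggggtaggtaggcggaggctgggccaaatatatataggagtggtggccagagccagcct
Pou2af1: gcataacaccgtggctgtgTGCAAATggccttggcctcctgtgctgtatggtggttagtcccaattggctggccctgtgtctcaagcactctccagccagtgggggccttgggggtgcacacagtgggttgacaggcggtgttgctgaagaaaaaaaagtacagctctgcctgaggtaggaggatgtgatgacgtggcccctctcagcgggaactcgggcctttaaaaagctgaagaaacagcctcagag
The capitals begin 248 bases before the start of Spib and 231 bases before that of Pou2af1. On either strand, TGCAAAT occurs in 2 of the 17 annotated promoters of the factors and in 3.56% of 32851 mouse promoters of the same length. CCAAT occurs in 4 of the 17 and in 33.8% of all, TATAAA in 0 of the 17 and in 12.4% of all, and the palindromic Ebf1 motif (TCCC and GGGA with 2 free bases between) in 0 of the 17 and in 0.779% of all. Promoters were matched by symbol for 9 of the 10 factors, all but Ikzf3.

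Ikzf1 and Ikzf3, the Ikaros family factors, had nearly equal group means. Ikzf1 (ENSMUSG00000018654, chromosome 11 at 11685003 to 11772926, plus strand) was at 437, 449, 500.5, 448 and 556 CPM in Chat+ replicates 1 to 5. In Chat- replicates 1 to 5 it was at 426, 439.9, 454, 479 and 562 CPM. Replicate 5 was the highest library in each group. The log2 fold change of Ikzf1 was 0.02, with a 95% confidence interval from -13.8% to 19.1%, and its sign changed with TMM scaling (-0.02).

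Ikzf3 (ENSMUSG00000018168, chromosome 11 at 98464902 to 98546031, minus strand) was at 449, 451, 411, 451 and 693 CPM in Chat+ replicates 1 to 5. In Chat- replicates 1 to 5 it was at 411, 429, 464, 435 and 683 CPM. Both libraries numbered 5 thus lay far above the other 8, which ran from 411 to 464 CPM, and the groups were alike in this. Without them the means were 441 ± 19.8 and 435 ± 22.0 CPM (SD, n = 4). With all libraries the log2 fold change of Ikzf3 was 0.02 (interval from -21.4% to 30.9%), and with TMM scaling it was -0.02. Ikzf3 had the largest spread within groups of the 10 factors, with an SD of 0.30 on the log2 scale. The ratio of Ikzf3 to Ikzf1 CPM was 1.25 and 1.22 in the libraries numbered 5 and 0.821 to 1.03 in the other 8.

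**Figure D3:**
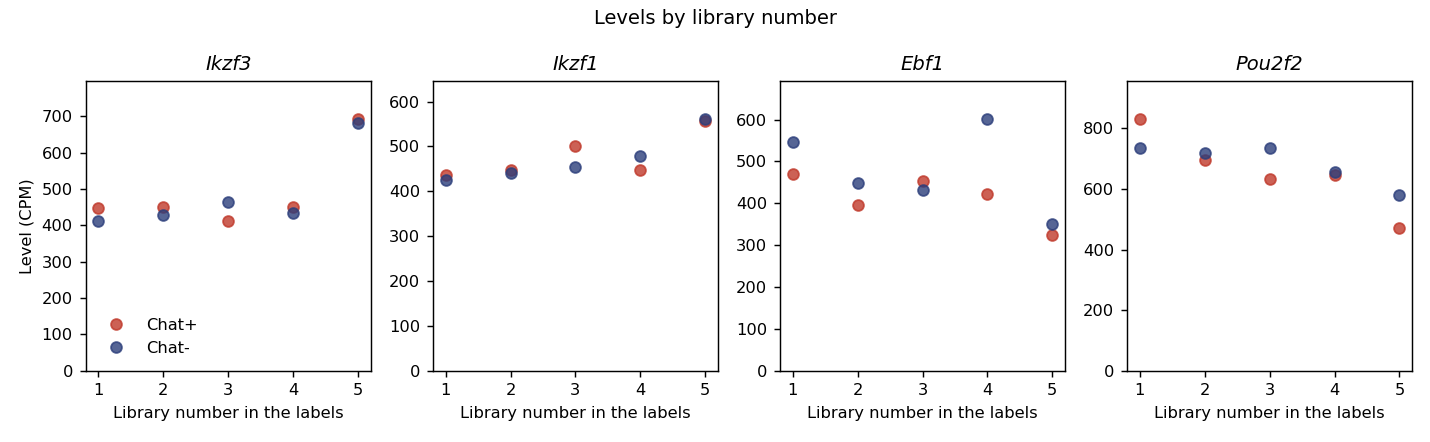
Level in CPM (vertical axes from 0) of Ikzf3, Ikzf1, Ebf1 and Pou2f2 against the library number given in the labels, with Chat+ in red and Chat- in blue. The libraries numbered 5 are the highest of both groups for Ikzf3 (693 and 683 CPM) and Ikzf1, and the lowest of both groups for Ebf1 and Pou2f2.

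The libraries numbered 5 were the extreme of both groups for 4 of the 10 factors, the highest for Ikzf1 and Ikzf3 and the lowest for Ebf1 and Pou2f2. Over all genes, they were the highest of both groups for 6.62% and the lowest for 10.4%. The libraries numbered 1 were the lowest of both groups for Ikzf1, Bach2 and Pou2af1, where 3.85% of all genes had that pattern. The other 7 of the 10 combinations of number and extreme held none of the factors and 2.04% to 7.02% of all genes. The labels do not say what a shared number marks.

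Foxp1 (ENSMUSG00000030067, chromosome 6 at 98925338 to 99522721, minus strand) varied little. It encodes a forkhead factor needed in early B cell development. Its level was 691, 599, 682, 612 and 739 CPM in Chat+ replicates 1 to 5, and 709.96, 669, 632, 776 and 665 CPM in Chat- replicates 1 to 5. The groups overlapped, and the log2 fold change was -0.06, with an interval from -17.1% to 11.8% (limma adjusted p = 0.999). Across the 10 factors the SD within groups ran from 0.12 to 0.30 on the log2 scale, with a median of 0.17. The median over the 2230 genes with a mean of at least 100 CPM was 0.21.

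Levels of different genes were compared as CPM per kb of the union of all annotated exons, over all 10 libraries. Spib was highest (321.5 ± 33.1 CPM per kb, SD), above 98.7% of the listed genes, followed by Pou2af1 (275 ± 46.3), whose library values overlapped those of Spib. Pax5 came next (146 ± 12.5) and overlapped neither neighbour. Ikzf1 (82.2 ± 8.49) and Pou2f2 (81.3 ± 12.0) overlapped each other, and Ikzf3 (55.7 ± 12.2) overlapped both of them as well as Foxp1 (49.3 ± 4.01) and Ebf1 (45.6 ± 8.53). These 5 formed a run with no clear order between neighbours. The ranges pool the libraries, and Ikzf3 reached those of Ikzf1 and Pou2f2 only through the libraries numbered 5. In each single library Ikzf1 was above Ikzf3 per kb. The CPM ratio of Ikzf3 to Ikzf1 was at most 1.25, with lengths of 8.75 and 5.78 kb. Bach2 (30.9 ± 5.04) overlapped Ebf1, and Satb1 was lowest (9.37 ± 1.55) with no overlap. Satb1 lay above 63.0% of the listed genes. Divided by the longest transcript, Satb1 was still lowest (28.6 CPM per kb) and the 3 highest kept their places, while Ikzf1, Ikzf3 and Foxp1 changed place.

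**Figure D4:**
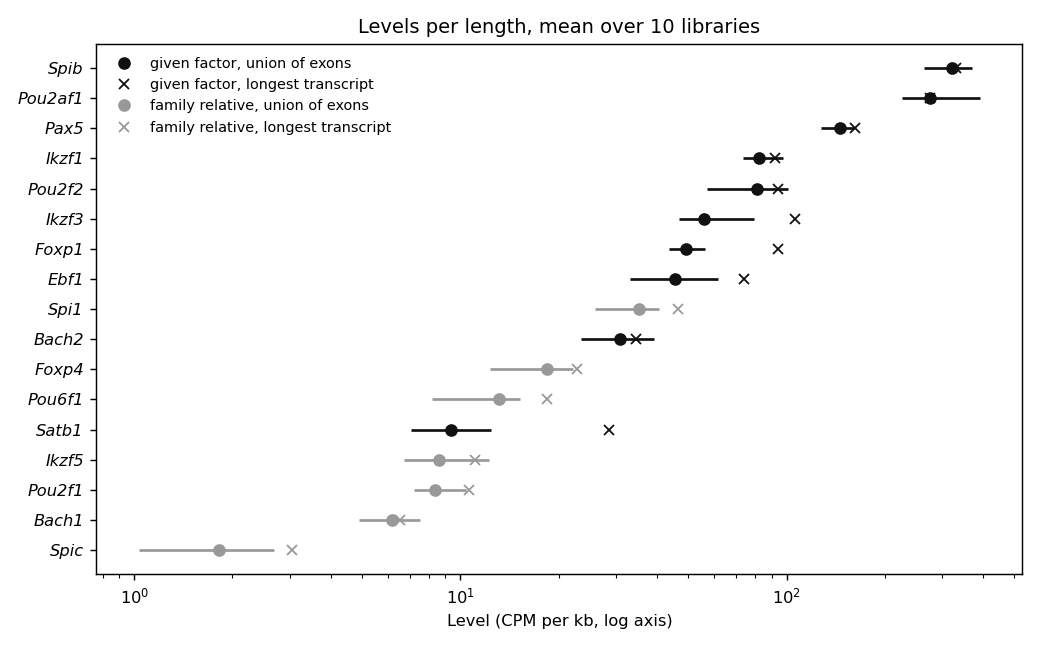
Level in CPM per kb (log axis) of the 10 factors (black) and of 7 relatives of the same families (grey), as the mean over 10 libraries. Dots and lines are the mean and range with the union of exons as length, and crosses the mean with the longest transcript; Spib, Pou2af1 and Pax5 lead by either length and Satb1 is the lowest of the 10 factors.

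Measured relatives were lower per length than the factor of the same family in each family compared. Of 20 relatives on the list, 12 were measured, and with limma 0 passed over all genes and 0 had an unadjusted p under 0.05. Spi1 (PU.1), the ETS relative of Spib, was at 35.2 ± 4.99 CPM per kb over 10 libraries, and Spic at 1.81 ± 0.528. The CPM ratio of Spib to Spi1 averaged 9.93 ± 1.16 (Chat+) and 9.68 ± 0.611 (Chat-; SD, n = 5). Ikzf5 (8.60 ± 1.47 CPM per kb), Pou2f1 (8.38 ± 0.995), Bach1 (6.19 ± 1.02) and Foxp4 (18.5 ± 3.22) were each below the factor of their family. Foxp4 had the smallest p of the relatives, with 83.0 ± 18.0 and 98.9 ± 9.12 CPM (SD, n = 5; limma adjusted p = 0.999).

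Another 30 transcription factors with known roles in B cells were read from a list, and 0 of them passed over all genes with limma. The estimate lay below 0 for 22 of the 30, against 43% of all genes. Their median log2 fold change was -0.06 against 0.04 over all genes. The share of all genes below 0 was 51.1% with TMM scaling and 50.4% without Chat- replicate 4. Some of the 30 changed sign among the alternatives, such as Irf4 (-0.09 to 0.10) and Klf2 (-0.07 to 0.06), and others did not. This list of 30 was also chosen with earlier results of these data known. At an unadjusted p under 0.05, 0 were higher in Chat+ and 1 was lower, against 3.49% and 1.01% of all genes. This was Sox4, a factor of early B cell survival, at 5.89 to 17.6 CPM in Chat+ and 17.6 to 23.2 CPM in Chat- (log2 fold change -0.64 ± 0.27, SE; limma adjusted p = 0.999). Mef2c, which acts downstream of the antigen receptor, was at 426 ± 49.2 and 495 ± 54.6 CPM, and Foxo1, needed for early B cell development, at 250.4 ± 24.8 and 285 ± 42.4 CPM (SD, n = 5). Nfatc1, a calcium-regulated factor used by B-1 cells, was at 221 ± 24.6 CPM in Chat+ and 191 ± 28.9 CPM in Chat-. The groups overlapped for all 3 (limma adjusted p = 0.999).

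Of 29 measured genes that the factors are described as controlling, 0 passed over all genes with limma. At an unadjusted p under 0.05, 4 were higher and 2 lower in Chat+, against 3.49% and 1.01% of all genes. These lists were chosen with earlier results of these data known. The counts, here and for each list below, thus do not test the targets as a set. The groups did not overlap for 3 of them, Ly6a and Il5ra (above) and Rag1 (below). Over all genes, 1.12% lay above and 0.304% below without overlap. Of 12 genes activated by Pax5, 10 had an estimate below 0, against 43% of all genes, and 11 did with TMM scaling, against 51.1% of all genes. Their median log2 fold change was -0.12 against 0.04 over all genes, and 1 was lower at an unadjusted p under 0.05, against 1.01% of all genes. This was Fcer2a, the gene of the low-affinity IgE receptor CD23, at 763 ± 102 and 966 ± 50.3 CPM in Chat+ and Chat- (SD, n = 5; limma adjusted p = 0.73). Cd72, an inhibitory coreceptor gene, was at 240.4 ± 80.2 and 312 ± 87.6 CPM (SD, n = 5), and Nedd9 and Sdc4 had log2 fold changes of -0.12 and -0.18.

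Of 9 genes repressed by Pax5, 7 were measured, and 2 were higher in Chat+ at an unadjusted p under 0.05, against 3.49% of all genes. Ly6a, the gene of Sca-1, was at 273, 272.5, 286, 264.5 and 349.9 CPM in Chat+ replicates 1 to 5, and at 219, 198.5, 185, 233 and 199.4 CPM in Chat- replicates 1 to 5. Every Chat+ library lay above every Chat- library, which 1.12% of all genes did. The log2 fold change was 0.48 ± 0.10 (SE) and did not pass (limma adjusted p = 0.28). Ly6a belongs to a family of similar genes, so how reads were split among them is uncertain. Jchain, the gene of the chain that joins IgM and IgA units, was at 15.1 to 213 CPM in Chat+ and 10.1 to 35.8 CPM in Chat- (limma adjusted p = 0.999). Plasma cell markers, 8 of 9 measured, summed to 452 to 735 CPM in Chat+ and 391.9 to 475 CPM in Chat-, a sum that includes Jchain. Without Jchain the other 7 summed to 433.7 to 522 CPM and 382 to 445 CPM, which overlapped. Among them Xbp1, Irf4, Sdc1, Slamf7 and Prdm1 had log2 fold changes of -0.05 to 0.10, and Mzb1 and Derl3 of 0.52 and 1.75. Their part in the Jchain difference was not tested. Csf1r, Flt3 and Notch1, genes of other lineages that Pax5 silences, had log2 fold changes of -0.35, -0.30 and -0.17, and none had an unadjusted p under 0.05. Csf1r was at 26.7 CPM in Chat- replicate 4, and without that library its log2 fold change was 0.37. The sign of Flt3 also changed among the alternatives (-0.56 to 0.03).

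Of 5 genes described as depending on Pou2f2 or Pou2af1, 5 had an estimate above 0, as did 8238 of all 14450 genes. With TMM scaling 4 did, since Cxcr5 was then at -0.01, while 51.1% of all genes lay below 0. At an unadjusted p under 0.05, 2 were higher, against 3.49% of all genes. Il5ra, the interleukin 5 receptor gene, was at 49.0, 49.1, 65.2, 44.7 and 47.4 CPM in Chat+ replicates 1 to 5, and at 40.1, 36.6, 38.9, 36.0 and 38.1 CPM in Chat- replicates 1 to 5. The groups did not overlap, with Chat+ above, which held for 1.12% of all genes. Il5ra did not pass over all genes (log2 fold change 0.42 ± 0.12, SE, limma adjusted p = 0.53). Cd36, a scavenger receptor gene, was at 44.9 ± 5.08 and 34.5 ± 4.77 CPM (SD, n = 5; limma adjusted p = 0.82), and its groups overlapped. Cxcr5, Ms4a1 and Btk had log2 fold changes of 0.03 to 0.08. Pou2f2 and Pou2af1 themselves had estimates below 0.

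Rag1, a recombinase gene that Foxp1 is described as activating in precursors, was at 0.233 to 1.93 CPM in Chat+ and 1.99 to 7.06 CPM in Chat- (limma adjusted p = 0.34). Vpreb1, a surrogate light chain gene silenced with the help of Ikzf1 and Ikzf3, was at 0 to 0.999 CPM in Chat+ and 0.118 to 3.11 CPM in Chat-. Of the 4 genes on the list of Bach2-repressed genes, 0 had an unadjusted p under 0.05. Cebpb, Cebpa and Hmox1 had log2 fold changes of 0.22, 0.36 and -0.17, and Prdm1 is given with Bach2 above.

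**Figure D5:**
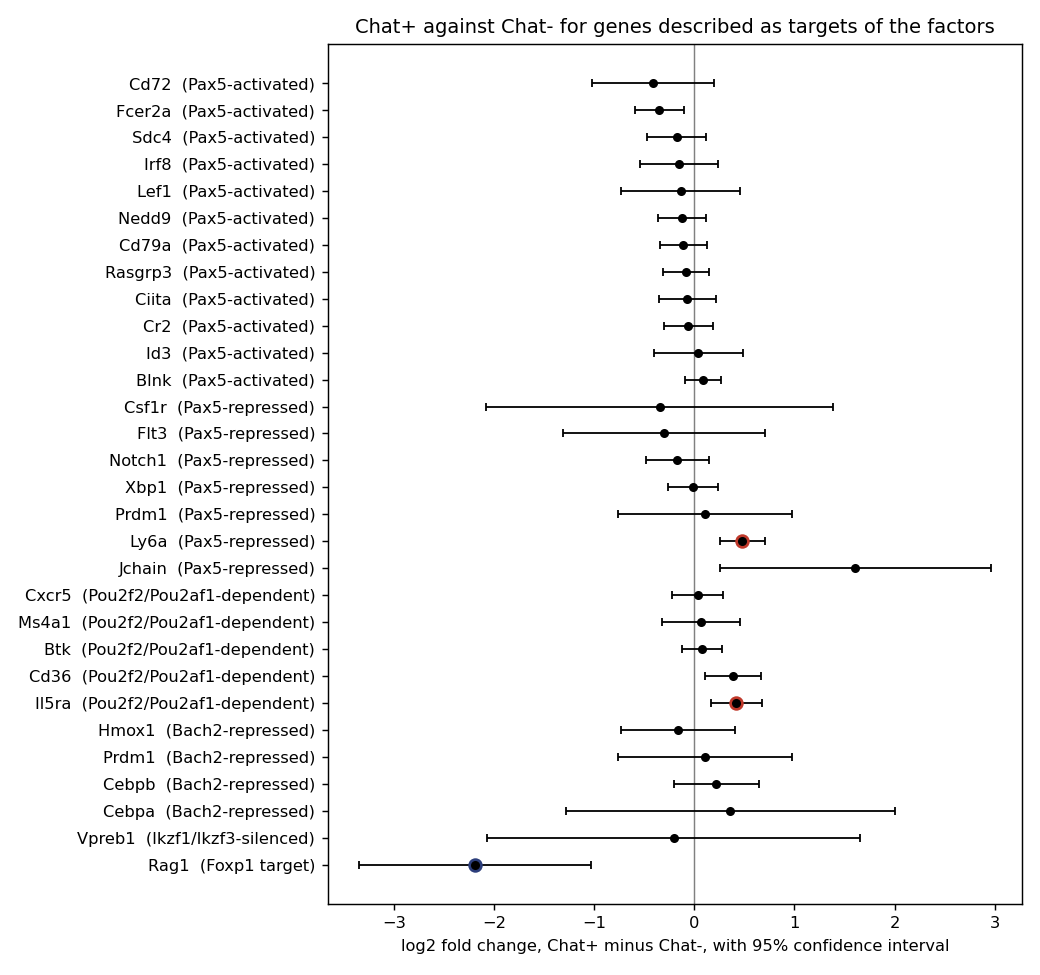
Log2 fold change (Chat+ minus Chat-, limma, with 95% confidence intervals) of genes described as targets of the factors, grouped by factor. Larger red points mark genes whose Chat+ libraries all lie above Chat- (Ly6a at 0.48 and Il5ra at 0.42), and the larger blue point marks Rag1, whose Chat+ libraries all lie below.

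The genes whose levels followed Satb1 and Ikzf3 most closely were read from the 10 libraries, among 8939 genes with a mean of at least 10 CPM. For Satb1 these were Zswim1, Lrig2 and Sc5d, with Pearson r of 0.93, 0.92 and 0.91 and Spearman rho of 0.88, 0.81 and 0.88. Without the 2 libraries farthest from the median of Satb1 (Chat- 4 and Chat+ 2), r was 0.84, 0.77 and 0.74. For Ikzf3 they were Xxylt1, Usp24 and Lcp1, with r of 0.98, 0.95 and 0.94 and rho of 0.67, 0.41 and 0.60. Without the libraries numbered 5, r was 0.52, -0.41 and -0.21, so that this likeness rested on those 2 libraries. No p is given, since the genes were picked as the most alike of all.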

How the data were processed

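RNA was measured in 10 libraries of sorted marrow B cells, 5 Chat+ and 5 Chat-, grouped by the labels. Reads came from a strand-specific kit per the labels' protocols, and the submitters' processing notes name cutadapt 2.6, Salmon 0.14.2 and GRCm38.p6; of the strand setting and of how CPM was made, nothing is stated there. The deposited values are log2 values: with the shared lowest value (-3.12, an offset of 0.115 CPM) removed, each library sums to 1000000 CPM. Depth was estimated from what 1 read is worth; 35.4% to 47.7% of values under 3 CPM were whole reads within 0.001, so reads were not recovered and no count model was used.

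limma 3.58.1 (R 4.3.3) was run on the deposited log2 values of all 14450 genes with the trend option and no covariate besides group; p-values were two-sided and adjusted by Benjamini-Hochberg over all genes (threshold 0.05). A fold change on the log2(CPM + offset) scale understates the change of low genes. The fit was tested on simulated data. CPM means and SDs were taken after removing the offset. Python 3.11.15, numpy 2.4.6 and pandas 2.3.3 made the tables. The factors and gene lists were chosen with earlier results of these data known. The genes named are the 10 factors, up to 4 genes of smallest p per list, the relatives compared by level and the 3 genes most like the factor of smallest p and the factor of largest spread. Cxcr5, Csf1r, Ms4a1, Btk, the marker genes, Spic and Pou2f1 were named after their values were seen. A gene of the Pax5-activated list is not reported here.

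Symbols were matched for 14374 of 14450 identifiers, and coordinates and lengths come from GENCODE M21 (GRCm38). At most 2.73% of the 31-base words of a factor's transcripts occur in other genes. Exons of Pax5, Bach2 and Satb1 overlap genes on the opposite strand by 761, 537 and 128 bases, and exons of Foxp1, Satb1 and Pou2f2 overlap genes on the same strand by 435, 156 and 35 bases. Reads from these overlaps may be uncertain. Alternatives were TMM scaling (trimmed mean of log ratios, unweighted), equal medians, log2(CPM + 1), a filter of 1 CPM in 5 libraries, no trend, library quality weights, a replicate term and leaving out libraries. The fit without both libraries numbered 5 was added after seeing the data.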

Additional observations from a re-analysis of the deposited data

Results flagged for a closer look

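A library far from the others of its own group was found in 4 of 20 groups of 5 libraries examined (10 factors in each of 2 groups). The nominal rate of this rule is about 1 in 20, but the factors were read in the same 10 libraries and are not independent. The 4 flags thus cannot be set against that rate, and the share of all genes with such a library was not counted. Pax5 was at 1430.2 CPM in Chat- replicate 1, against 1318 to 1329.7 CPM in the other Chat- libraries. Ikzf3 was at 693 CPM in Chat+ replicate 5, against 411 to 451 CPM in the other Chat+ libraries. Ikzf3 was also at 683 CPM in Chat- replicate 5, against 411 to 464 CPM in the other Chat- libraries. Satb1 was at 236 CPM in Chat- replicate 4, against 185 to 197 CPM in the other Chat- libraries.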

How the results depend on the processing

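Over 19 alternatives, 0 of the 10 factors passed the adjusted threshold in any, and Satb1 kept an estimate below 0 in all 19 (-0.41 to -0.30), with adjusted p from 0.097 to 1. Bach2 also stayed below 0 in all (-0.34 to -0.22; adjusted p of 0.19 to 1), as did Pax5, Ebf1, Spib and Pou2af1. Ikzf1 changed sign with TMM scaling (-0.0242), with equal medians (-0.0221) and in the range without 1 library (-0.0369 to 0.0833). Ikzf3 changed sign with TMM scaling (-0.0226), equal medians (-0.0205) and without 1 library (-0.11 to 0.15). Pou2f2 ranged from -0.17 to 0.0336 without 1 library, and 0.0336 was without Chat+ replicate 5. The cause of these changes was not tested. Over all genes, 1 gene passed in the main test, 3 without the trend, 105 with library quality weights and 6 without both libraries numbered 5, and leaving out 1 library gave 1 to 6. The largest of these, 6, came without Chat+ replicate 5 or Chat- replicate 4, and 2 passed without Chat- replicate 1 or 3. In the fit with a replicate block, 6 genes and 0 factors passed, and 82 genes and 0 factors without Chat- replicate 4 as well, where Foxp1 changed sign (0.0163). Same-numbered libraries correlated at -0.21 to 0.26 in their deviations, and 3 of 5 Chat+ libraries correlated best with their own number. For the numbers 3 and 4 the correlation was negative (-0.061 and -0.21). These values do not settle whether libraries were paired, and the labels do not say. Ly6a passed under 2 alternatives, library quality weights and the block without Chat- replicate 4, and Jchain under the latter. By level, 7 of 10 factors kept their place with the longest transcript as length and 5 with CPM. Levels of about 1 CPM or less, such as Vpreb1, are limited by depth.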

Other observations

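Summed over the 10 factors, the level was 5684 to 6149 CPM in Chat+ and 6251 to 6704 CPM in Chat- (5918 ± 217 and 6402 ± 181 CPM, SD, n = 5), so the sums did not overlap although 9 of the 10 factors did. The sum was read after the values were seen and has no test. Pax5 and Spib weigh most in it (means of 1295 and 922 CPM over all libraries). How often sums of 10 other genes separate the groups was not counted. Relative to Pax5, Satb1 CPM averaged 0.126 ± 0.0143 (Chat+) and 0.149 ± 0.0170 (Chat-; SD, n = 5). These ratios overlapped between the groups (0.112 to 0.150 against 0.137 to 0.179).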
